A study of Mus musculus with 9 samples.

Results

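Genes of WNT signaling, namely the secreted WNT ligands, their receptors, the R-spondins, the secreted antagonists and a few intracellular regulators, were followed in cultured synovial fibroblasts (SFs) of arthritic and healthy mice. They were chosen by name, with earlier results of these data known. Every protein-coding gene called Wnt, Fzd, Sfrp, Dkk or Rspo with a number was taken, together with Frzb, Wif1, Lrp5, Lrp6, Ror1, Ror2, Lgr5, Sost, Notum, Axin2, Lef1, Tcf7, Nkd1 and Nkd2. This gave 55 of the 49548 genes in the deposited tables: 19 ligands, 14 receptors, 5 potentiators, 12 secreted antagonists and 5 intracellular regulators. The data are 3′ mRNA sequencing libraries, in which reads come from the 3′ end of a transcript. Reads on a gene do not grow with its length, so levels can be set side by side between genes.

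The SFs came from digested ankle joints of mice at 8 weeks of age on a CBA C57BL/6J background, and CD45+ cells had been removed from the cultures at passage 1. Of the 9 libraries, 3 were from wild-type (WT) SFs, 3 from untreated SFs of hTNFtg mice, which carry a human TNF transgene and develop polyarthritis, and 3 from hTNFtg SFs given infliximab, an antibody that neutralizes human TNF, at 1 µg/mL for 48 hours. For SFs without infliximab, the labels say that no treatment was given and the methods name a vehicle. The methods speak of 3 biological replicates, but the labels do not say that these were separate mice or cultures, so p-values measure the spread between libraries.

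WNT ligands are secreted lipid-modified proteins that bind Frizzled (Fzd) receptors. Together with Lrp5 or Lrp6 they stabilize β-catenin, which acts in the nucleus with Tcf and Lef factors, and together with Ror receptors they act without β-catenin. R-spondins strengthen the response by keeping Frizzled receptors on the cell surface, while Sfrp proteins, Frzb and Wif1 catch ligands outside the cell and Dkk proteins act mostly on Lrp5 and Lrp6. In joints the pathway is known for its part in cartilage and bone turnover, and Frzb was first known from cartilage.

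The libraries held between 3829149 and 9015647 reads on genes by an estimate from the rounded values, except for hTNFtg replicate 1 with 613343. In that library 1 read was worth 6.23 normalized counts, and 3 reads, taken as the floor of what can be told from 0, were worth 18.7 normalized counts, against 1.60 to 3.31 in the others. All 10 fibroblast markers were above 0 in every group, with a summed level of 41735 to 52442 normalized counts in WT, 37658 to 45509 in hTNFtg and 35608 to 41281 in infliximab-treated SFs. Markers of some other cell types moved with the groups. The 12 chondrocyte markers summed to 6277 to 9432, 628 to 1262 and 941 to 2556 in the same order, mostly through Comp and Sox9. In 5 of the 12 (Comp, Sox9, Acan, Col9a1 and Col9a2) all hTNFtg libraries were below all WT libraries, and in the other 7, among them Col2a1 at 51 to 94, 37 to 88 and 49 to 133 and Matn1 at 0 in WT and hTNFtg, they overlapped or tied. The 9 osteoblast and osteocyte markers summed to 692 to 1248, 93 to 164 and 169 to 310, with Mepe at 0 throughout. In 4 of the 9 (Alpl, Ibsp, Runx2 and Sp7) all hTNFtg libraries were below all WT libraries, and the other 5 overlapped or tied. The 11 macrophage markers, led by Lyz2, summed to 181 to 693, 3121 to 6451 and 2063 to 4277. In 9 of the 11 all hTNFtg libraries were above all WT libraries. The 7 osteoclast markers summed to 171 to 893, 579 to 5003 and 475 to 1924, so WT and hTNFtg sums overlapped. In 2 of the 7 all hTNFtg libraries were above all WT libraries, and Mmp9 made up 4533 of the 5003, in hTNFtg replicate 3. Endothelial, mural and Schwann markers summed to at most 6, 565 and 186 in any library, and hepatocyte markers to at most 891, in an infliximab library. Of the 6 endothelial markers 0 separated hTNFtg from WT libraries. Of the 6 mural and of the 5 Schwann markers, 1 each lay below and 1 each above WT. The part of these cells in the results below was not tested, and in bulk RNA fewer cells of a type and less RNA per cell cannot be told apart.

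Of the 55 members, 51 were above 0 in at least 1 library. Wnt1, Wnt8b, Wnt9b and Rspo4 were at 0 in all 9 libraries, and 10 members, these included, never passed the floor of 3 reads. A mean of at least 10 normalized counts in at least 1 group was reached by 28 members, on which the values below rest. The other 27 reached at most 12 normalized counts in any library. These low members included most ligands and, among the regulators, Axin2, Lef1, Tcf7, Dkk1, Notum and Sost. Pairs of WNT genes lie next to each other in the mm10 genome, among them Wnt6 and Wnt10a 6194 bases apart on chromosome 1, and Wnt3a and Wnt9a 16176 bases apart on chromosome 11.

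**Figure D1:**
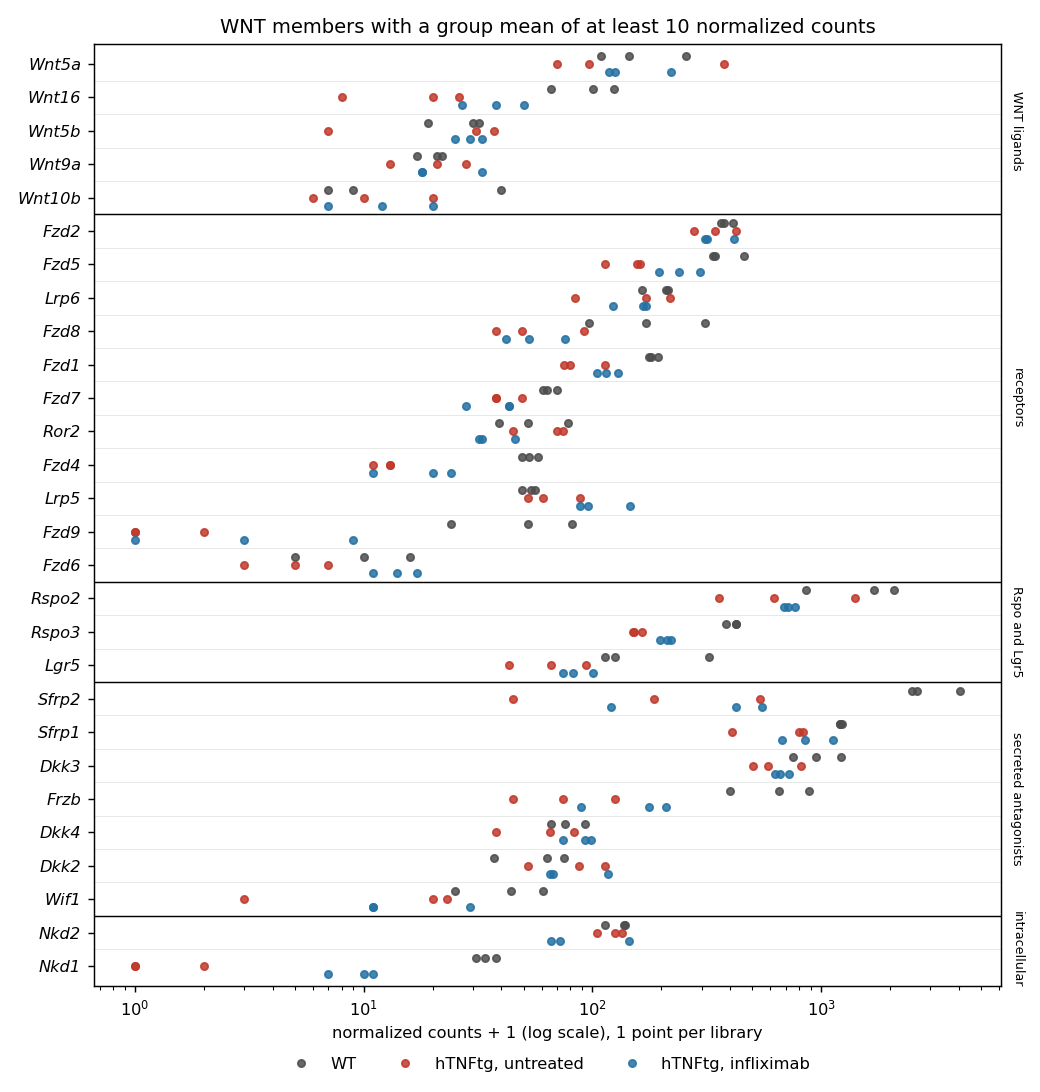
Normalized counts plus 1 (log scale) of the 28 members with a group mean of at least 10, by role, with 1 point per library for WT, untreated hTNFtg and infliximab-treated hTNFtg SFs. Sfrp2, Frzb, Fzd9, Nkd1 and Wnt16 lie lower in all 3 hTNFtg libraries than in any WT library, while Fzd2, Nkd2 and Dkk2 overlap between the groups.

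The comparison of hTNFtg with WT SFs asks which genes differ in established arthritis. A gene was called when its unadjusted P was under 0.05 and its log2 fold change was 1 or more in either direction. By this rule 14 of 49 members tested fell in hTNFtg SFs and 0 rose. Over all 28522 genes tested the rule called 3.04% lowered and 3.35% raised. As the members were chosen with earlier results of these data known, such shares are a background and not a test. Among members with a mean of at least 10, 13 of 28 fell, against 4.2% of genes at that level, of which 5.24% rose. Fzd9 and Nkd1 reached that mean in WT alone, the group where they were high, and without them 11 of 26 fell. The median log2 fold change was -0.94 over these 28 members and -0.06 over the 14581 genes at that level, and -0.775 over the 26 members without Fzd9 and Nkd1. In 14 of the 28 the 3 hTNFtg libraries all lay below the 3 WT libraries, which held for 9.27% of genes at that level, and in 12 of 26 without Fzd9 and Nkd1. Adjusted p-values over all genes were under 0.05 for 4 members, Frzb, Sfrp2, Fzd9 and Nkd1, and for 0.48% of all genes. These 4 are 2 secreted antagonists, a receptor and an intracellular inhibitor. When any 1 of the 6 libraries was left out, 0 members had an adjusted p under 0.05, while 10 to 13 members fell by the rule.

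**Figure D2:**
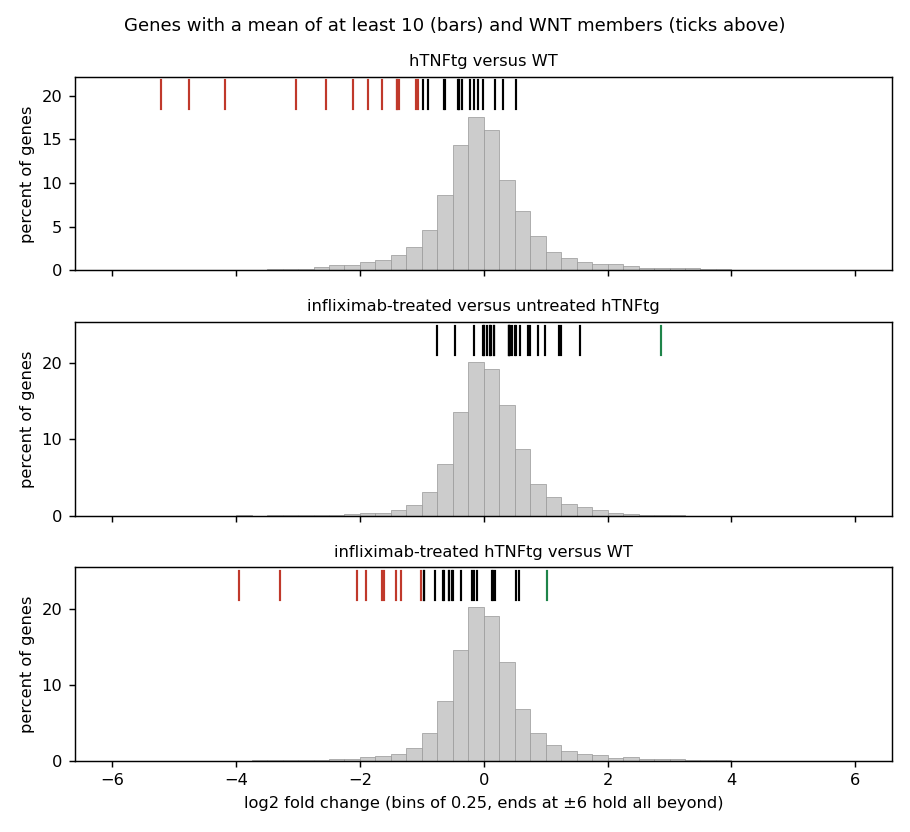
Percent of genes with a mean of at least 10 normalized counts in each bin of log2 fold change (bars), with the 28 members as ticks above, red when lowered, green when raised and black when not called, for 3 comparisons that share libraries pairwise. In hTNFtg versus WT SFs the member median is -0.94 and the gene median -0.06.

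By group means, secreted antagonists had the highest summed level of the 5 roles, though in hTNFtg replicate 3 the potentiators were above them, at 1615 against 1559 normalized counts. Their 12 genes summed to 6087 ± 896 normalized counts in WT, 1817 ± 595 in hTNFtg and 2269 ± 459 in infliximab-treated SFs (mean ± SD, n = 3 each). Every hTNFtg library, at 1395 to 2498, lay below every WT library, at 5460 to 7113. The infliximab libraries, at 1853 to 2761, overlapped the untreated ones. By the rule, 3 of 11 tested antagonists fell (Frzb, Sfrp2 and Wif1) and 0 rose.

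Sfrp2, at chr3:83766321-83774316 on the plus strand, encodes a secreted protein with a Frizzled-like domain that binds WNT ligands, and it had the highest level of all members in WT SFs. Its level was 2632, 2500 and 4053 normalized counts in the WT libraries, 542, 185 and 44 in the hTNFtg libraries and 550, 425 and 119 in those given infliximab. The hTNFtg libraries were all below the WT libraries but differed widely among themselves, replicate 3 being the lowest. The log2 fold change in hTNFtg versus WT SFs was -4.17 (SE 0.69, adjusted p = 0.0237), an 11.9-fold lower mean. It was -5.03 without hTNFtg replicate 1 and -3.23 without hTNFtg replicate 3. An antisense gene, Gm26771, covers the 3′ end of Sfrp2, and the tables list it at 2317 to 3762 in WT and 29 to 536 in hTNFtg libraries, close below Sfrp2 in each library. Whether the counting used strand is not given in the sources used here, so reads of the 2 genes cannot be told apart.

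Frzb, also called Sfrp3, is a soluble Frizzled-related protein known from cartilage and lies at chr2:80411970-80447625 on the minus strand. It was measured at 886, 652 and 399 normalized counts in WT SFs, 125, 73 and 44 in hTNFtg SFs and 209, 176 and 88 with infliximab. All hTNFtg and infliximab libraries were below the WT libraries. The mean went from 646 ± 244 to 80.7 ± 41.0 in hTNFtg SFs (SD, log2 fold change -3.04, SE 0.42, adjusted p = 0.0115), the smallest adjusted p among the members. Of the 12 chondrocyte markers, 5 were likewise lower in all hTNFtg than in all WT libraries. Comp stood at 4373 to 7288 in WT and 299 to 848 in hTNFtg libraries, Sox9 at 1160 to 1939 and 174 to 272, Col9a2 at 12 to 21 and 0 to 0, Acan at 5 to 16 and 0 to 1, and Col9a1 at 1 to 19 and 0 to 0. The other 7 overlapped or tied, as for Col2a1 at 51 to 94 and 37 to 88 and Col9a3 at 13 to 37 and 20 to 62. For Acan, Col9a1 and Col9a2 the 0 in hTNFtg replicate 1 allows up to 18.7.

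Wif1, an inhibitor that binds WNT ligands directly, had 60, 43 and 24 normalized counts in WT, 19, 22 and 2 in hTNFtg and 10, 28 and 10 in infliximab libraries. In hTNFtg, replicates 1 and 2 lay just below the lowest WT library and replicate 3 far below it. The 19 in replicate 1 is at that library's floor of 18.7, so its order with the WT value of 24 was not resolved. The log2 fold change was -1.87 (SE 0.79, adjusted p = 0.582), and the call was kept in only 1 of the 6 fits that each left out a library, that without hTNFtg replicate 2. Without hTNFtg replicate 3 the log2 fold change of Wif1 was -0.92. The related Sfrp1 had 1206, 1211 and 1231 in WT, 835, 408 and 797 in hTNFtg and 1130, 673 and 846 in infliximab libraries. Its groups did not overlap between WT and hTNFtg, but the log2 fold change of -0.91 (SE 0.34) was too small for the rule. Without hTNFtg replicate 1 it was -1.09 and without replicate 3 -1.06, both past the rule.

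The make-up of this family differed between the groups. Of the summed counts of the 4 Sfrp genes and Frzb, Sfrp2 held 55.7% to 71.3% in WT libraries, 4.96% to 35.9% in hTNFtg and 11.3% to 33.3% with infliximab. The share of Sfrp1 was 21.6% to 27.7%, 55.4% to 89.9% and 52.7% to 80.2% in the same order. Sfrp1 was second to Sfrp2 in every WT library and ahead of it in every hTNFtg library, treated or not. Sfrp4 and Sfrp5 each held at most 0.398% in any library.

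**Figure D3:**
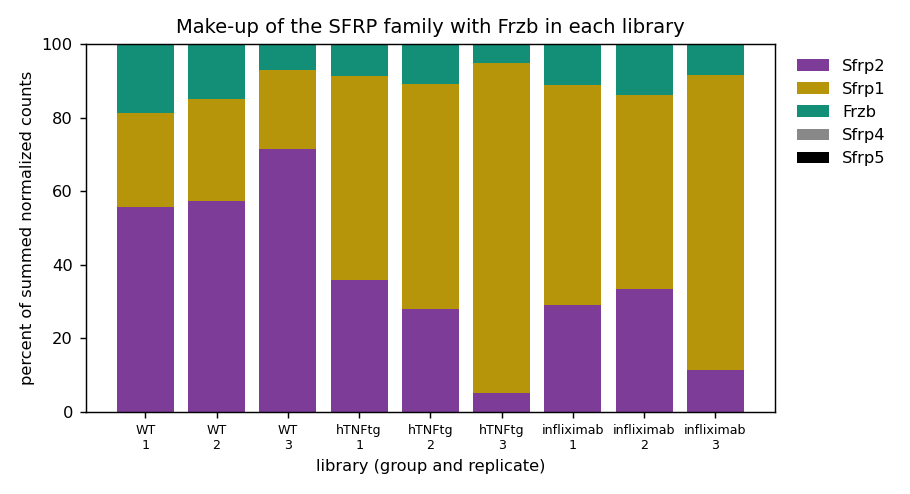
Share of Sfrp2, Sfrp1, Frzb, Sfrp4 and Sfrp5 in the summed normalized counts of these 5 genes, 1 bar per library. Sfrp2 holds 55.7% to 71.3% in WT libraries and at most 35.9% in any hTNFtg library, and Sfrp4 and Sfrp5 are too low to be seen.

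The Dkk family showed no call. Dkk3, the most abundant and a divergent member that is not a typical Lrp antagonist, had 756, 948 and 1225 normalized counts in WT, 816, 586 and 500 in hTNFtg and 661, 722 and 628 in infliximab libraries, with a log2 fold change of -0.63 (SE 0.33) in hTNFtg versus WT SFs. Its groups overlapped. Dkk2, which binds Lrp6, had 62, 36 and 74 in WT, 112, 51 and 86 in hTNFtg and 116, 66 and 64 with infliximab, and its log2 fold change of 0.52 (SE 0.42) was the highest of the 28 members though not called. Dkk4 had 75, 65 and 92, then 37, 64 and 82, then 73, 98 and 92, overlapping throughout. The 3′ end of Polb, a DNA polymerase gene on the other strand, lies 579 bases beyond that of Dkk4, with 80 to 124 normalized counts. Dkk1, Notum, Sfrp4, Sfrp5 and Sost were below 10 in every library.

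Among the 14 receptors 5 of the Frizzled genes fell and 0 receptors rose. The 10 Frizzled genes summed to 1314 ± 113 normalized counts in WT (SD, n = 3), 699 ± 94.0 in hTNFtg and 835 ± 35.2 in infliximab-treated SFs, and no hTNFtg or infliximab library reached the lowest WT library. The order of the levels in WT SFs was Fzd2 and Fzd5, with means of 383 and 378 normalized counts, then Fzd8 and Fzd1, with 192 and 183, then Fzd7, Fzd4 and Fzd9, with 63.7, 52.3 and 51.3, and Fzd6 with 9.33. The WT libraries of Fzd2 overlapped those of Fzd5, those of Fzd8 overlapped those of Fzd1, and those of Fzd9 overlapped those of Fzd7 and Fzd4.

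Fzd9, at chr5:135248938-135251230 on the minus strand, encodes a Frizzled receptor known for its part in bone formation. It had 23, 51 and 80 normalized counts in WT libraries, 0, 1 and 0 in hTNFtg and 8, 2 and 0 with infliximab. This came to 201 reads over the WT libraries and 1 read over the hTNFtg libraries. Divided by each group's total reads, the ratio was 180 with a 95% counting interval of 32.0 to 7160. The ratio of mean normalized counts was 154. In hTNFtg replicate 1 the 0 allows up to 18.7 normalized counts. The fitted log2 fold change, which depends on the pseudocount, was -5.21 (SE 0.82, adjusted p = 0.0213). The call was kept in 6 of 6 fits that each left out a library.

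Fzd5, which lies at chr1:64730558-64737751 on the minus strand, had 457, 341 and 336 normalized counts in WT, 112, 156 and 161 in hTNFtg and 293, 194 and 238 in infliximab libraries. The 3 groups did not overlap at all, with infliximab between the others. The log2 fold change was -1.40 (SE 0.30, adjusted p = 0.0753) in hTNFtg versus WT SFs. Fzd4, the receptor for WNT ligands and for norrin, had 48, 52 and 57 in WT, 12, 12 and 10 in hTNFtg and 19, 23 and 10 with infliximab. Its log2 fold change was -2.11 (SE 0.46, adjusted p = 0.0871), and the 12 in hTNFtg replicate 1 is under that library's floor. Fzd1 had 193, 176 and 179, then 112, 79 and 74, then 104, 128 and 114, with a log2 fold change of -1.06 (SE 0.30, adjusted p = 0.222) that went to -0.995 without hTNFtg replicate 2 and -0.95 without replicate 3, both short of the rule. All hTNFtg and infliximab libraries of Fzd4 and Fzd1 were below WT.

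Fzd8 had 96, 171 and 308 normalized counts in WT, 37, 48 and 91 in hTNFtg and 52, 75 and 41 with infliximab, with a log2 fold change of -1.64 (SE 0.47, adjusted p = 0.225). Its highest hTNFtg library and its lowest WT library nearly met, and the call was lost without hTNFtg replicate 1 (log2 fold change -1.36). Fzd7, with 69, 60 and 62, then 37, 48 and 37, then 42, 42 and 27, did not overlap with WT either but had a log2 fold change of only -0.64. Fzd2 had 362, 375 and 411 in WT, 343, 277 and 425 in hTNFtg and 310, 316 and 415 in infliximab libraries, and a log2 fold change of -0.16 (SE 0.29). Its share of the Frizzled counts was 28.5% to 30.4% in WT and 43.9% to 52.7% in hTNFtg libraries. Fzd6 had 15, 4 and 9, then 6, 4 and 2, then 10, 16 and 13.

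The co-receptors Lrp5 and Lrp6, which pair with Frizzled in the β-catenin branch, did not pass the rule in hTNFtg versus WT SFs. Lrp6 had 209, 163 and 214 normalized counts in WT, 218, 170 and 83 in hTNFtg and 165, 170 and 122 in infliximab libraries, overlapping throughout. Lrp5 had 48, 53 and 55, then 87, 51 and 60, then 145, 95 and 87, so the infliximab libraries were all above WT. Ror2, a receptor for Wnt5a, had 51, 38 and 77, then 69, 44 and 73, then 32, 45 and 31, and Ror1 was below 10 throughout.

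R-spondins and Lgr5, an R-spondin receptor, fell in hTNFtg SFs in all 3 members with a mean of at least 10. Rspo3, at chr10:29452416-29535867 on the minus strand, had 383, 423 and 422 normalized counts in WT, 149, 151 and 164 in hTNFtg and 219, 211 and 196 with infliximab. Replicates were close together and the 3 groups were fully apart, with infliximab in between. The log2 fold change was -1.40 (SE 0.27, adjusted p = 0.0510) in hTNFtg versus WT SFs. Lgr5 had 113, 124 and 321 in WT, 93, 65 and 42 in hTNFtg and 81, 100 and 73 in infliximab libraries. WT replicate 3 was high, and without it the log2 fold change of Lgr5 went from -1.37 (SE 0.45) to -0.89 and the call was lost. It was also lost without hTNFtg replicate 3, at -1.08.

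Rspo2, the most abundant R-spondin, had 861, 1704 and 2086 normalized counts in WT, 355, 618 and 1408 in hTNFtg and 717, 687 and 765 with infliximab. WT and hTNFtg libraries overlapped. Its log2 fold change of -1.10 (SE 0.50, adjusted p = 0.645 by limma) just passed the rule and was kept in only 2 of 6 fits that each left out a library, going to -0.64 without hTNFtg replicate 1, -1.04 without hTNFtg replicate 2, -0.99 without WT replicate 2 and -0.84 without WT replicate 3. Rspo1 was below 10 throughout.

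Of the 15 ligands tested, Wnt16 and Wnt2b fell in hTNFtg SFs and 0 rose. Wnt16, a ligand known for its part in cortical bone and in joints, lies at chr6:22288227-22298522 on the plus strand. Its level was 123, 100 and 65 normalized counts in WT, 25, 19 and 7 in hTNFtg and 49, 37 and 26 in infliximab libraries. The 3 groups did not overlap, with infliximab in between, but 25 in hTNFtg replicate 1 nearly met 26 in the lowest infliximab library. In hTNFtg replicate 1, 1 read was worth 6.23 normalized counts, so that order was not resolved. The log2 fold change in hTNFtg versus WT SFs was -2.55 (SE 0.52, adjusted p = 0.0645), a 5.65-fold lower mean. Wnt2b was near the floor, with 4, 4 and 10, then 0, 1 and 1, then 2, 2 and 0, which came to 23 reads in WT and 3 in hTNFtg libraries and a ratio of 6.88 with a 95% counting interval of 2.08 to 35.8. Its call was lost without WT replicate 3, at a log2 fold change of -1.66.

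Wnt5a, the most abundant ligand and the main one of the branch without β-catenin, had 256, 108 and 144 normalized counts in WT, 374, 96 and 69 in hTNFtg and 220, 124 and 117 with infliximab. It was high in replicate 1 of every group, and the groups overlapped. Its close relative Wnt5b had 31, 18 and 29, then 6, 36 and 30, then 24, 28 and 32, and Wnt9a had 21, 20 and 16, then 12, 27 and 20, then 17, 32 and 17. Wnt10b had 39, 8 and 6, then 19, 5 and 9, then 11, 19 and 6, with a single high WT library. In the summed ligand counts Wnt16 held 22.0% to 36.6% in WT and 4.49% to 9.31% in hTNFtg libraries.

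Of the intracellular members, Nkd1, which binds Dishevelled and damps the WNT response that induces it, fell. It lies at chr8:88521354-88594884 on the plus strand, and its levels were 37, 30 and 33 normalized counts in WT, 0, 0 and 1 in hTNFtg and 9, 10 and 6 with infliximab. Every WT library was above all others. The 0 in hTNFtg replicate 1 allows up to 18.7 normalized counts, which is above the infliximab values. Over the libraries this was 122 reads in WT and 2 in hTNFtg SFs. Divided by each group's total reads, the ratio was 54.7 with a 95% counting interval of 14.8 to 457. The ratio of mean normalized counts was 100. The fitted log2 fold change was -4.76 (SE 0.79, adjusted p = 0.0237). Its relative Nkd2 had 137, 112 and 138, then 125, 134 and 104, then 71, 65 and 143, with no call. Axin2, a widely used readout of β-catenin activity, had 9, 2 and 2, then 0, 7 and 5, then 0, 3 and 2, which came to 14 reads in WT and 17 in hTNFtg libraries, with no call. Lef1 and Tcf7, the transcription factors, reached at most 2 and 4 normalized counts, with 4 against 5 reads for Lef1 and 11 against 11 for Tcf7.

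**Figure D4:**
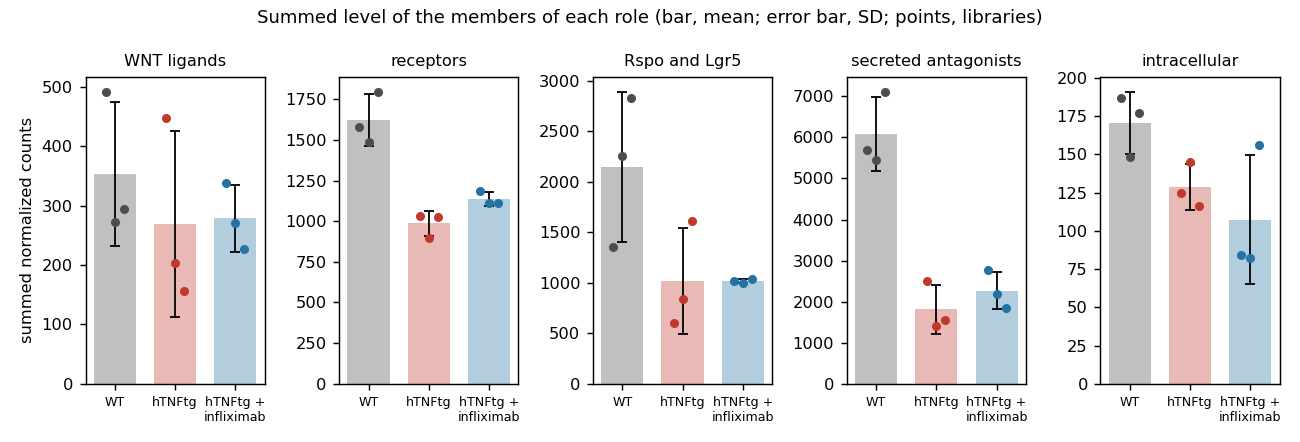
Summed normalized counts of the members of each role (linear axes from 0), with bars for the mean, error bars for the SD and points for the 3 libraries of each group. Secreted antagonists average 6087 in WT and 1817 in hTNFtg SFs and receptors 1622 and 986, without overlap of libraries.

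Regulatory sequence was looked at for what the members that fell have in common. Promoters, from 250 bases before to 50 bases after the start, were found in RefSeq (GRCm38.p6) for 37 of the 55 members, 10 of them among the 14 that fell. Those of Frzb, Sfrp2 and Fzd9, which had an adjusted p under 0.05, and of Wnt16, the only called ligand with a mean of at least 10, are shown with CpG dinucleotides in capitals. The RefSeq start of Nkd1 is 6279 bases from the gene's start in the tables, so it is not shown. Those of Frzb and Fzd9 are 229 and 183 bases from the listed starts, so most of these windows lies within the genes as listed.

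Frzb, chr2:80447347-80447646, minus strand: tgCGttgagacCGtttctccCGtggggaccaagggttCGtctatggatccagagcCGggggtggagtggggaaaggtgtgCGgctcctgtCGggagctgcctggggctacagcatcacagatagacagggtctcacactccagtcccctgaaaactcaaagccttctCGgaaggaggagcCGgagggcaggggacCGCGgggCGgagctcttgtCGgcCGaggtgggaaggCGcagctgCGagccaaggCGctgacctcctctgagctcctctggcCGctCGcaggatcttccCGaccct

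Sfrp2, chr3:83766071-83766370, plus strand: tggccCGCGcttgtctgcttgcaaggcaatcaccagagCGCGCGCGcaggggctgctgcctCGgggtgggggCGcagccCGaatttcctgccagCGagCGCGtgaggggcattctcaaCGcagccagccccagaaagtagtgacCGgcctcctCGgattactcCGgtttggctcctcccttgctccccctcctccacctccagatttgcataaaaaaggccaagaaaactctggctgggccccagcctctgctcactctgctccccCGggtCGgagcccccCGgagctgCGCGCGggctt

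Fzd9, chr5:135250998-135251297, minus strand: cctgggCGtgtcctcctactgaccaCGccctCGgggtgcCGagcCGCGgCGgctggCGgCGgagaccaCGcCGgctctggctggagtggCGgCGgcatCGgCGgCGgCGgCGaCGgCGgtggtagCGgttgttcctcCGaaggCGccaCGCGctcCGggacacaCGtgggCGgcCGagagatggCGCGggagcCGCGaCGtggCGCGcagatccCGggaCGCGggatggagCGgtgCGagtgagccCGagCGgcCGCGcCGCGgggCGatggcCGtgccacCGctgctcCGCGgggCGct

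Wnt16, chr6:22287977-22288276, plus strand: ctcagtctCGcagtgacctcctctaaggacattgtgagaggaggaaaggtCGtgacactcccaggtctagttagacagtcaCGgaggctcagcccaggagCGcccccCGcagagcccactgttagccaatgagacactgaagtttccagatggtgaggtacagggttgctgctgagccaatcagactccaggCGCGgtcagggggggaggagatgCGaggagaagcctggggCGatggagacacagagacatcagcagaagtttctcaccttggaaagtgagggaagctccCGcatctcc

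These 4 promoters differ in CpG content, with 20 CpG in Frzb, 22 in Sfrp2, 53 in Fzd9 and 10 in Wnt16. The median was 27 CpG and 69.0% GC over the 37 member promoters, 23.5 CpG and 65.3% GC over the 10 of members that fell, and 14 CpG and 57.0% GC over 19796 promoters of protein-coding genes. Both strands were searched for CTTTGAT, a core letter run of Tcf and Lef sites, and for GGNNTTTCC, a core run of NF-kB sites. They were in 0 of the 10 promoters of members that fell, a count that, like the medians, includes the Nkd1 window. In all 37, CTTTGAT was in Wnt11 only and GGNNTTTCC in Dkk2 only, 2.70% each, against 3.17% and 5.74% of the promoters of protein-coding genes. A missing match says only that these letters are not in this window.

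The comparison of infliximab-treated with untreated hTNFtg SFs asks what neutralizing TNF changes. It shares the untreated hTNFtg libraries with the comparison above. By the rule 1 of 50 members tested rose, Nkd1, and 0 fell, where 1.49% of all 28540 genes rose and 0.936% fell. With a mean of at least 10 this was 1 of 28 members, against 1.83% raised and 1.08% lowered genes. By limma 0 members had an adjusted p under 0.05, as for 0.0% of all genes, and 3 members had an unadjusted P under 0.05, where 3.59% of all genes and 5.2% of those with a mean of at least 10 did. By edgeR on approximate reads 4 members rose by the rule, against 1.81% of all genes, and 0 had an adjusted p under 0.05, against 0.578%.

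Nkd1 went from 0, 0 and 1 to 9, 10 and 6 normalized counts, which is 2 against 27 reads. Untreated over treated libraries, the ratio of reads, divided by each group's total reads, was 0.0722 with a 95% counting interval of 0.00832 to 0.287. The fitted log2 fold change was 2.86 (SE 0.84, adjusted p = 0.803). The treated libraries all lay below the WT libraries at 30 to 37 and above the listed untreated values, of which that of replicate 1 allows up to 18.7. Its mean over these 6 libraries is under 10, so it is not among the genes tested when a mean of at least 10 is asked for.

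In 5 of the 28 members, Nkd1, Fzd5, Rspo3, Wnt16 and Fzd6, all treated libraries lay above all untreated ones, which held for 6.41% of genes at that level. Fzd6 reached a mean of 10 with infliximab alone, the group where it was high, and without it the count was 4 of 27. In Nkd1 and Fzd6 the value of hTNFtg replicate 1 was under that library's floor, so this order was not resolved there. For Wnt16 it was not resolved either, as 25 in hTNFtg replicate 1 was within 1 read of the lowest treated value, 26. Fzd5 and Frzb were the other members with an unadjusted P under 0.05, with log2 fold changes of 0.75 (SE 0.30) and 0.99 (SE 0.43) and the same adjusted p of 0.803. Rspo3 had a log2 fold change of 0.43 (SE 0.27), Wnt16 of 1.21 (SE 0.58) and Fzd6 of 1.55 (SE 0.81). Of the 28, 23 had a log2 fold change above 0, and the median was 0.41, or 0.40 without Fzd6, against 0.04 for all genes at that level. In hTNFtg versus WT, 25 of the 28 were below 0, and the untreated libraries are shared. A low value there counts as a fall in that comparison and a rise in this one, so the 2 counts are not independent. Sfrp2 and Fzd9, with log2 fold changes of 0.88 (SE 0.73) and 1.25 (SE 0.82), overlapped between treated and untreated libraries. Leaving out 1 library gave -0.063 to 1.734 for Sfrp2 and 0.459 to 2.044 for Fzd9. Without hTNFtg replicate 1, the shallow library, 4 members rose by the rule, Nkd1, Frzb, Fzd6 and Wnt16, and without infliximab replicate 3 the 3 were Nkd1, Frzb and Fzd9. The share of all genes raised in these fits is not given here. Over the 6 fits that each left out a library, log2 fold changes were 0.626 to 1.369 for Frzb, 0.704 to 1.555 for Wnt16 and 1.22 to 1.831 for Fzd6.

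**Figure D5:**
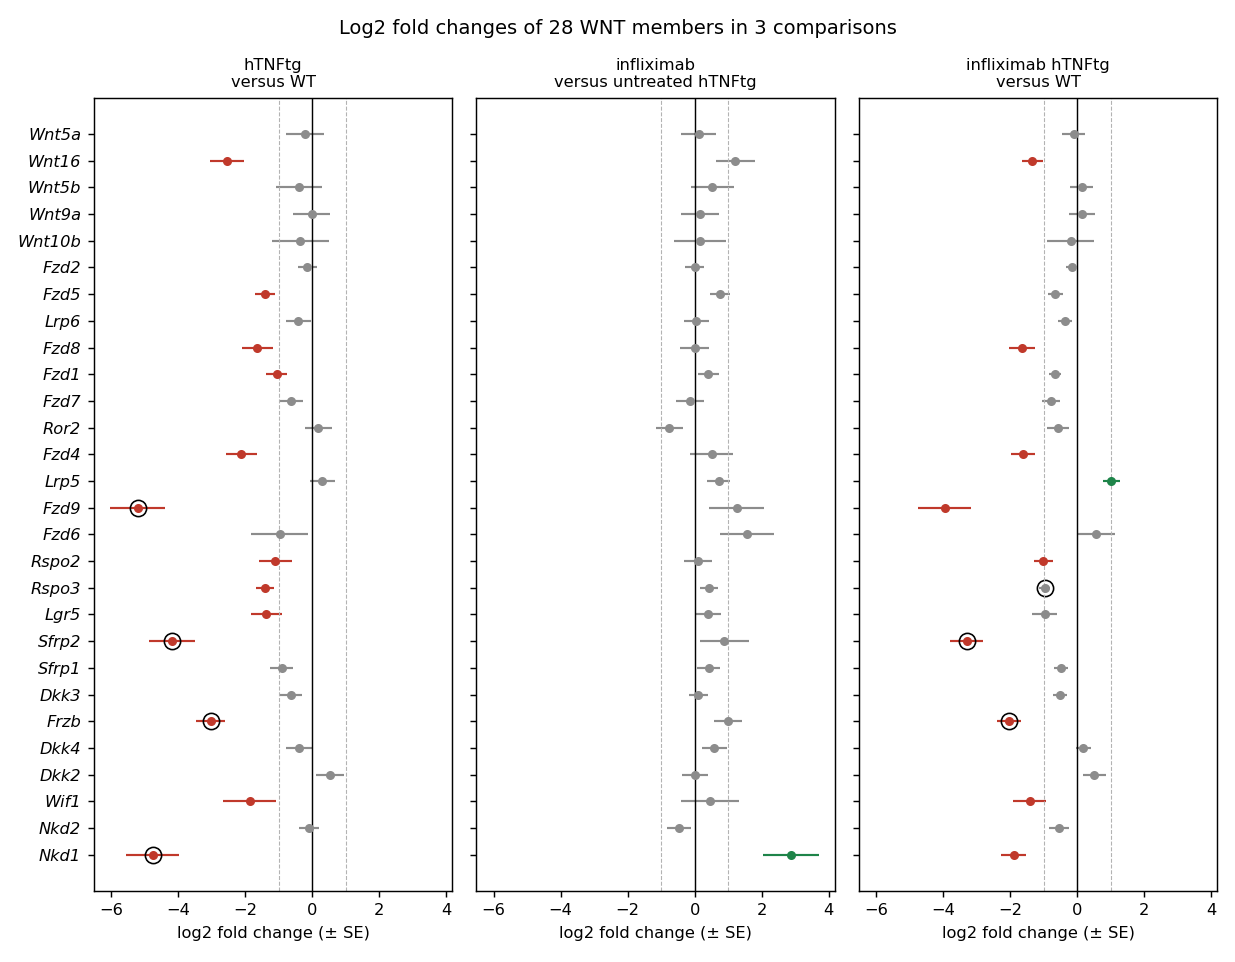
Log2 fold changes of the 28 members with their SE in 3 comparisons, red when lowered and green when raised by the rule, with a black ring where the adjusted p is under 0.05. Frzb, Sfrp2, Fzd9 and Nkd1 are ringed in hTNFtg versus WT, 0 members with infliximab versus untreated, and Frzb, Sfrp2 and Rspo3 in infliximab-treated hTNFtg versus WT.

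Infliximab-treated hTNFtg SFs were compared with WT SFs to see what was left of the difference after treatment. This comparison shares libraries with both others. By the rule 10 of 51 members were lower than in WT and 2 higher, against 2.95% lowered and 3.86% raised of all genes tested. With a mean of at least 10 it was 9 and 1 of 28, against 3.49% and 5.1%. In 15 of the 28 the treated libraries all lay below WT, which held for 11.7% of genes at that level. Without Fzd9 and Nkd1, which reached that mean in WT alone, 7 of 26 were lower and 1 higher by the rule, and 13 of 26 lay below WT without overlap. An adjusted p under 0.05 was found for Frzb (log2 fold change -2.04, SE 0.36, adjusted p = 0.0405), Sfrp2 (-3.30, SE 0.49, adjusted p = 0.0243) and Rspo3 (-0.97, SE 0.16, adjusted p = 0.0368), and for 0.74% of all genes. When any 1 library was left out, 0 members had an adjusted p under 0.05. Wnt16, Fzd4, Fzd8, Fzd9, Nkd1, Wif1, Rspo2 and Wnt2b were lower by the rule alone, and each of the last 3 was called in only 2 of 6 fits that left out a library.

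The log2 fold changes against WT stood side by side as follows. For Nkd1 it was -4.76 without and -1.90 with infliximab, for Wnt16 -2.55 and -1.34, for Fzd5 -1.40 and -0.65, and for Frzb -3.04 and -2.04. For Fzd8 it was -1.64 and -1.64, and for Sfrp2 -4.17 and -3.30, the latter going to -2.625 without infliximab replicate 3. Lrp5 was higher than in WT after treatment, at 145, 95 and 87 against 48, 53 and 55 normalized counts (log2 fold change 1.02, SE 0.25, adjusted p = 0.120). The call of Lrp5 was lost without infliximab replicate 1, at 0.80, and without WT replicate 1, at 0.96. Wnt10a passed the rule near the floor, with 2 reads in WT and 14 in treated libraries, a WT over treated ratio of 0.125 with a 95% counting interval of 0.0138 to 0.544.

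Other genes of the pathway, from a list set by role, were counted in the same fits. In hTNFtg versus WT SFs 7 of 97 tested rose and 8 fell by the rule, against 3.35% and 3.04% of all genes, and the median log2 fold change was -0.14, against -0.003 for all genes. Of the 97, 82 had a mean of at least 10, a level at which 5.24% of genes rose and 4.2% fell, with a median of -0.064. By limma 3 of the 97, Lgr4, Cd44 and Vcan, had an adjusted p under 0.05, against 0.48% of all genes. The other called genes passed by the unadjusted rule alone. Lgr4, the R-spondin receptor related to Lgr5, had 225, 227 and 311 normalized counts in WT, 87, 75 and 72 in hTNFtg and 70, 119 and 80 with infliximab, and a log2 fold change of -1.68 in hTNFtg versus WT SFs (SE 0.30, adjusted p = 0.0336). It fell without overlap, while Lgr6 rose from 0, 2 and 2 to 19, 8 and 16 by the unadjusted rule (adjusted p = 0.276 by limma). The 19, in hTNFtg replicate 1, is at that library's floor of 18.7. Porcn, which attaches the lipid that ligands need for secretion, had 117, 93 and 59 in WT and 6, 42 and 60 in hTNFtg libraries, the 6 being a single read in the shallow library. Igfbp4, a secreted protein that can bind Frizzled and Lrp6, had 28065, 23735 and 21589 in WT and 8383, 4757 and 2908 in hTNFtg libraries.

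Inside the cell the Dishevelled regulator Dact1 and the planar polarity gene Prickle1 fell by the unadjusted rule in hTNFtg SFs, with log2 fold changes of -1.49 and -1.63. So did the β-catenin cofactor Pygo1 and the corepressor Tle2, at -2.00 and -1.77. Tle2 had 350, 261 and 293 normalized counts in WT and 25, 163 and 160 in hTNFtg libraries (adjusted p = 0.366 by limma). Prickle1, Pygo1 and Tle2 were lowest in hTNFtg replicate 1, the shallow library, at 12, 19 and 25. Fits without that library are given here for members only. The corepressor Tle1 and the formin Daam2 rose, at 1.04 and 1.27, and Dact2, listed at 0 in WT, passed the rule near the floor with 6, 7 and 4 normalized counts. Of 17 tested genes widely used as WNT targets, 3 rose and 1 fell by the rule, with a median log2 fold change of 0.043. Over all genes tested 3.35% rose and 3.04% fell. Of the 17, 15 had a mean of at least 10, a level at which 5.24% of genes rose and 4.2% fell. Ccnd1, the cyclin D1 gene, had 1017, 1237 and 1039 normalized counts in WT and 2965, 3538 and 3566 in hTNFtg libraries (log2 fold change 1.61, SE 0.33, adjusted p = 0.0646). Cd44 and Vcan, which encode a hyaluronan receptor and versican, rose as well (1.56 and 1.74, adjusted p = 0.0385 and 0.0274), and Bambi fell.

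With infliximab 2 of 96 pathway genes rose and 1 fell against untreated hTNFtg SFs, where 1.49% and 0.936% of all genes did, or 1.83% and 1.08% at a mean of at least 10, so these counts are near the background. Pygo1 went from 19, 65 and 54 to 143, 137 and 128 normalized counts, with 262, 165 and 106 in WT, and rose without overlap (log2 fold change 1.71, SE 0.43, adjusted p = 0.803). Daam2 went from 75, 37 and 59 to 6, 21 and 25, with 16, 19 and 35 in WT. Rhoa, a small GTPase of the planar polarity branch, was the third, at 1.10 (SE 0.451, adjusted p = 0.803 by limma). It went from 1034, 1910 and 3194 to 3337, 3360 and 5574, with 2437, 2570 and 1563 in WT. Its lowest untreated value, like that of Pygo1, was in hTNFtg replicate 1, the shallow library. Against WT, 6 of 96 were higher and 7 lower after treatment, where 3.86% and 2.95% of all genes were, or 5.1% and 3.49% at a mean of at least 10, among them Ccnd1 (log2 fold change 1.45), Cd44 (1.05), Vcan (1.57) and Tbx3 above, and Lgr4 (-1.51), Igfbp4 (-1.58), Dact1 (-1.29), Prickle1 (-1.07) and Bambi (-1.22) below WT. Of these 96, 5 had an adjusted p under 0.05 by limma, against 0.74% of all genes.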

How the data were processed

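QuantSeq 3′ mRNA libraries of cultured SFs were sequenced, 3 for each of 3 groups. The authors deposited normalized counts for 49548 genes in 2 tables, and the submitters' processing notes name TopHat2, Bowtie2, DESeq and mm10. These deposited values, a score per gene and library, are whole numbers, made by dividing each library's counts by its size factor. In hTNFtg replicate 1 this deposited signal moves in steps of 1 read, so whole reads were given back for 99.2% of its values, and for 99.8% to 100% in the others, when rounding returned the listed value. The untreated hTNFtg libraries are the same in both tables and were used once. Another 24 per-sample columns were not used, nor were the authors' own fold changes and p-values.

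The main test was limma 3.58.1 (R 4.3.3) with a trend on log2(normalized count + 1), fitted to both groups' 6 libraries and to each gene that any of them lists above 0, with Benjamini-Hochberg adjustment over all genes tested. Fold changes are on this scale, which understates those of low genes. A member was called raised or lowered when P was under 0.05 and log2 levels differed by 1 or more. Values are given for members with a mean of at least 10 in a group and for called members, and other pathway genes are named when called. The members and lists were chosen with earlier results of these data known. The alternatives were pseudocounts of 0.5 and 5, a filter on a mean of at least 10, median ratios, quantile normalization, array quality weights, all 9 libraries in 1 fit, a replicate block, leaving out each library, and edgeR 4.0.16 on the approximate reads, which over all genes called 1484 raised and 935 lowered in hTNFtg versus WT, 518 and 711 with infliximab versus untreated and 1253 and 799 with infliximab versus WT, with 915, 165 and 1324 genes at an adjusted p under 0.05. A read ratio compares reads summed over each group's libraries, each divided by that group's reads on all genes. Deep libraries therefore weigh most in it, and it differs from a ratio of mean normalized counts. Intervals of read ratios are exact at 95% and, like the floors, cover counting error only. Tables and plots were made with Python 3.11.15, pandas 2.3.3, numpy 2.4.6, scipy 1.17.1 and matplotlib 3.10.9.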

Additional observations from a re-analysis of the deposited data

How the results depend on the processing

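In hTNFtg versus WT SFs 10 to 14 members fell by the rule in the alternatives tried, with 0 rising except for 2 with limma's array quality weights. The 4 members with an adjusted p under 0.05 became 11 with these weights, 8 with all 9 libraries in 1 fit, 10 with edgeR, 0 with a replicate block and 0 to 0 in the fits without 1 library. By edgeR 915 of 28522 genes tested had an adjusted p under 0.05, against 137 by limma. With infliximab versus untreated the 1 raised member became 0 at a mean of at least 10, 2 with median ratios, 4 with weights, 3 with all 9 libraries, 4 with edgeR, 2 with a replicate block and 1 to 4 without 1 library, and with weights 1 fell and 1 had an adjusted p under 0.05. With infliximab versus WT the 2 raised became 0 with a pseudocount of 5, 1 at a mean of at least 10, 1 with quantile normalization and 1 to 2 without 1 library. The 3 with an adjusted p under 0.05 became 8 at a mean of at least 10, 5 with weights, 0 with all 9 libraries, 12 with edgeR, 0 with a replicate block and 0 to 0 without 1 library. By edgeR 1324 of 28243 genes tested had an adjusted p under 0.05, against 209 by limma. For the other settings shares over all genes are not given here, so the member counts there have no background beside them. Same-numbered libraries correlated at -0.147 to 0.353 in their deviations from group means, and not every pair was above 0.1 in any comparison, so a pairing by number was not established. With infliximab versus untreated the 3 correlations were 0.07, 0.197 and 0.265, and those of differently numbered libraries were -0.256 to 0.126. A pairing in that comparison was thus not settled, and only the replicate block allows for it. The cause of these changes was not tested.

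Of 87 log2 fold changes of members, 23 changed sign under at least 1 alternative, 0 of them called. Leaving out 1 library gave, in hTNFtg versus WT, -0.19 to 0.011 for Nkd2, -0.049 to 0.45 for Ror2, -0.84 to 0.42 for Wnt10b, -0.95 to 0.26 for Wnt5a, -0.84 to 0.36 for Wnt5b and -0.27 to 0.29 for Wnt9a. Weights gave 0.067 for Nkd2, -0.015 for Ror2, 0.40 for Wnt5b and 0.345 for Wnt9a, and edgeR 0.054 for Wnt5b and 0.15 for Wnt9a. With infliximab versus untreated, leaving out 1 library gave -0.31 to 0.25 for Dkk2, -0.047 to 0.31 for Dkk3, -0.15 to 0.16 for Fzd2, -0.25 to 0.056 for Fzd7, -0.28 to 0.36 for Fzd8, -0.35 to 0.34 for Lrp6, -0.37 to 0.62 for Rspo2, -0.063 to 1.73 for Sfrp2, -0.50 to 0.97 for Wif1, -0.25 to 0.62 for Wnt10b, -0.36 to 0.85 for Wnt5a, -0.23 to 0.97 for Wnt5b and -0.14 to 0.415 for Wnt9a. Median ratios gave 0.007 for Dkk2 and 0.002 for Fzd8. Weights gave 0.49 for Dkk2, 0.19 for Fzd8, -0.075 for Lrp6, -0.23 for Wif1, -0.20 for Wnt5b and -0.17 for Wnt9a, and edgeR 0.086 for Dkk2, -0.11 for Rspo2 and -0.024 for Wnt5a. With infliximab versus WT, leaving out 1 library gave -0.675 to 0.58 for Wnt10b, -0.39 to 0.24 for Wnt5a, -0.105 to 0.27 for Wnt5b and -0.14 to 0.29 for Wnt9a, and weights 0.21 for Wnt10b and 0.11 for Wnt5a.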
